A study of Mus musculus with 2 samples.

Results

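Hcn2, Hcn3 and Hcn4, which encode hyperpolarization-activated cyclic nucleotide-gated (HCN) channel subunits, and Pex5l, which encodes the HCN-binding protein also called TRIP8b, were described in forebrain of newborn mice. The 4 genes were found by Ensembl identifier among 43346 mouse genes in the deposited tables, and all 4 had counts in both libraries. The samples were forebrain of mice at 0 days of age, strain B6NTac;B6NCrl/Lap, labelled healthy, with male and female animals pooled. Replicate 1 came from 15 mice and replicate 2 from a pool of mice of unstated number. Both are stranded paired-end libraries of rRNA-depleted total RNA, made from separate tissue isolates, and the labels give them the same donor identifier. They form 1 group, so the design holds no contrast between conditions, and the comparisons below are between genes within the tissue, between transcripts of a gene, and between the isolates. Every ± is an SD over n = 2 libraries, and p-values between the libraries measure the counting spread of these isolates alone.

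HCN channels open when the membrane is hyperpolarized and pass a mixed sodium and potassium current that drives the cell back toward threshold, which paces the heart beat and rhythmic firing in thalamus and cortex. Cyclic AMP binds a domain in the C-terminal part of each subunit and eases opening in HCN2 and HCN4, while HCN3 responds little to it. The protein encoded by Pex5l has tetratricopeptide repeats that hold the C-terminal tail of HCN subunits, and in rodent neurons it sets how many channels reach the surface and opposes the action of cyclic AMP. Its closest relative, encoded by Pex5, carries enzymes into peroxisomes.

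The subunit genes share their core sequence, so the stretch around the pore is printed to show how alike the 3 transcripts are where reads could be confused. Each line gives 60 coding bases in the sense direction from GENCODE M21 on GRCm38 (mm10), with capitals at the codons of the glycine-tyrosine-glycine selectivity filter, found as the single in-frame match of GGNTANGGN in the coding strand of each gene. The stretches lie at chr10:79728929-79728988 on the plus strand for Hcn2, chr3:89150985-89151044 on the minus strand for Hcn3 and chr9:58855561-58855620 on the plus strand for Hcn4.
Hcn2 pore: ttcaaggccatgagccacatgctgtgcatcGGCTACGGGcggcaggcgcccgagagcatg
Hcn3 pore: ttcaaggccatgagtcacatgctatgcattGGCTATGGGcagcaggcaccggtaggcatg
Hcn4 pore: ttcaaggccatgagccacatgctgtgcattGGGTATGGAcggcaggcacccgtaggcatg

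Over these stretches Hcn3 and Hcn4 shared 54 of 60 bases, Hcn2 and Hcn4 52, and Hcn2 and Hcn3 50. Over the whole coding sequences the aligned bases were 79.9% identical between Hcn2 and Hcn4, 78.1% between Hcn3 and Hcn4 and 74.3% between Hcn2 and Hcn3. The longest run shared by the full transcripts was 33 bases for Hcn2 and Hcn3 and 32 bases for each of the other pairs, below the read length of 101 bases. In the deposited gene tables the posterior SD of the count was 0 for all 4 genes in both libraries, so the deposited estimates carried no uncertainty in the share of reads given to these genes.

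The tail is printed next because it is the part of the subunit that the Pex5l protein holds. Each line gives the last 33 bases of the coding sequence with its stop codon, and capitals mark the last 3 codons before it. The positions are chr10:79735508-79735540 for Hcn2, chr3:89147599-89147631 for Hcn3 and chr9:58860731-58860763 for Hcn4, on the strands given above.
Hcn2 tail: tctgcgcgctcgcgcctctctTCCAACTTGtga
Hcn3 tail: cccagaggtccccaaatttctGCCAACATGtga
Hcn4 tail: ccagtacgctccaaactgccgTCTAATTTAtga

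Of the 9 bases in capitals, Hcn2 shared 7 with Hcn3 and 6 with Hcn4, and Hcn3 shared 4 with Hcn4. The closest pair at the pore, Hcn3 and Hcn4, was the least alike at the tail by bases. These base counts do not rank the encoded peptides. The capitals of Hcn2 and Hcn4 both encode serine, asparagine and leucine, while those of Hcn3 encode alanine, asparagine and methionine.

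All 4 genes stood at moderate levels in newborn forebrain. Levels are in coding TPM, that is the deposited TPM (a per-length share of transcripts) rescaled so that protein-coding genes alone make up the total, which keeps genes on a per-length scale and sets aside all other features, which held most of the deposited TPM. Hcn3 was highest, at 44.2 coding TPM in replicate 1 and 43.2 in replicate 2 (43.7 ± 0.695), from 2370 and 3032 expected counts. Hcn2 had 27.1 and 33.2 coding TPM (30.1 ± 4.30), from 1755 and 2313 counts. Pex5l had 23.2 and 31.5 coding TPM (27.3 ± 5.85), from 1190 and 1725 counts. Hcn4 had 18.9 and 29.6 coding TPM (24.3 ± 7.60), from 1476 and 2515 counts. The order Hcn3, Hcn2, Pex5l, Hcn4 was the same in both libraries, with Hcn3 alike in both and the other 3 genes lower in replicate 1. That holds for Hcn3 over all transcripts, since its protein-coding transcript was also lower in replicate 1 (26.9 and 32.8 coding TPM).

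**Figure D1:**
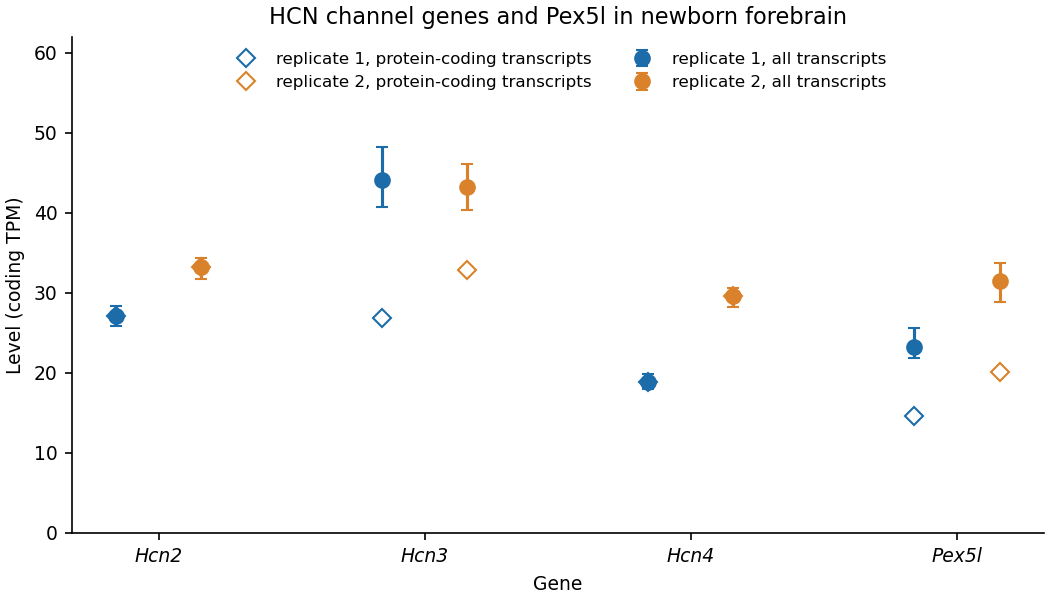
Level in coding TPM (linear axis) of each gene in replicate 1 (blue) and replicate 2 (orange): filled circles are all transcripts with the deposited interval bounds of TPM as bars, and open diamonds are protein-coding transcripts alone. Hcn3 is highest by all transcripts (44.2 and 43.2) and lies beside Hcn2 by protein-coding transcripts (26.9 and 32.8).

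The deposited interval bounds, whose level is not stated in the files, separated some of these neighbours and not others. Hcn3 exceeded Hcn2 by 1.63 times in replicate 1 and 1.30 times in replicate 2, with bounds of 40.7 to 48.2 against 25.8 to 28.4 coding TPM in replicate 1 and 40.3 to 46.1 against 31.7 to 34.4 in replicate 2. Hcn2 exceeded Pex5l by 1.17 and 1.05 times, and the bounds overlapped in replicate 2. Pex5l exceeded Hcn4 by 1.23 and 1.06 times, and here too the bounds overlapped in replicate 2, at 28.9 to 33.7 against 28.3 to 30.6 coding TPM. Hcn2, Pex5l and Hcn4 thus followed each other with differences that were not separated in both libraries for either pair of neighbours. Hcn2 was set apart from Hcn4, which is not its neighbour, by 1.43 and 1.12 times with no overlap. No test was run on these ratios.

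Among 21474 protein-coding genes, Hcn3 was exceeded by 21.4% in replicate 1 and 23.0% in replicate 2. The share above Hcn2 was 30.4 and 28.4%, above Pex5l 33.4 and 29.5%, and above Hcn4 37.1 and 30.8%. For comparison, the median protein-coding gene stood at 7.46 coding TPM in replicate 1 and 8.81 in replicate 2, and 63.3% of protein-coding genes reached 1 coding TPM in both.

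Hcn3 (ENSMUSG00000028051.6, chromosome 3, 89146074 to 89160196, minus strand) led by all transcripts through short annotated ones. Its only protein-coding transcript, Hcn3-201 (4002 nt, 8 exons), held 93.5 and 97.2% of the gene's counts but 60.9 and 76.1% of its TPM in replicates 1 and 2. The remainder lay mainly in Hcn3-202, a retained-intron transcript of 533 nt with 73.1 and 52.2 counts, which was credited with 26.4 and 19.0% of the TPM because its effective length was 285 and 264 nt. Hcn3-203, a retained-intron transcript of 909 nt, held 12.7 and 4.94%, and Hcn3-204 had 0 counts in both libraries. The deposited bounds of Hcn3-202 were wide, at 5.96 to 17.3 coding TPM in replicate 1 and 4.39 to 11.4 in replicate 2.

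By protein-coding transcripts alone, an alternative added after the data were seen, Hcn3 and Hcn2 stood at the same height. Hcn3-201 had 26.9 and 32.8 coding TPM against 27.1 and 33.2 for Hcn2, ratios of 0.992 and 0.989. Pex5l fell behind the channels on this scale, at 14.6 and 20.1 coding TPM, while Hcn4, with its single transcript, kept 18.9 and 29.6. Hcn2 then exceeded Pex5l by 1.85 and 1.65 times, and the ratio of Pex5l to Hcn4 was 0.773 and 0.678. The place of Pex5l relative to Hcn4 also turned by expected counts not divided by length, with all transcripts counted, where the ratio averaged 0.746.

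Hcn2 (ENSMUSG00000020331.5, chromosome 10, 79716634 to 79736108, plus strand), the subunit known for thalamocortical neurons, has 2 annotated transcripts with the same coding bases. They differ by an intron of 106 bases in the 3′ untranslated region (79735873 to 79735978), spliced out in Hcn2-201 and kept in Hcn2-202. Hcn2-202 held 100% of the gene's TPM in replicate 1 and 74.2% in replicate 2. Hcn2-201 had 0 counts in replicate 1 and 581 in replicate 2, with posterior SDs of 68.7 and 203 counts. Its bounds reached up to 3.49 coding TPM in replicate 1 and ran from 4.01 to 15.2 in replicate 2, with no overlap. The coding product is the same for both, so this division does not alter the summed level of Hcn2.

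Hcn4 (ENSMUSG00000032338.8, chromosome 9, 58823412 to 58863175, plus strand), the main pacemaker subunit of the sinoatrial node and also a subunit of thalamic neurons, had 1 transcript in the deposited tables and so no isoform share to compare. Its deposited length was 3798 nt, whereas the transcript of the same identifier in GENCODE M21 has 6118 nt. The deposited lengths of the other transcripts of these genes equalled those in M21. The effect of the shorter model on the level of Hcn4 was not tested.

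**Figure D2:**
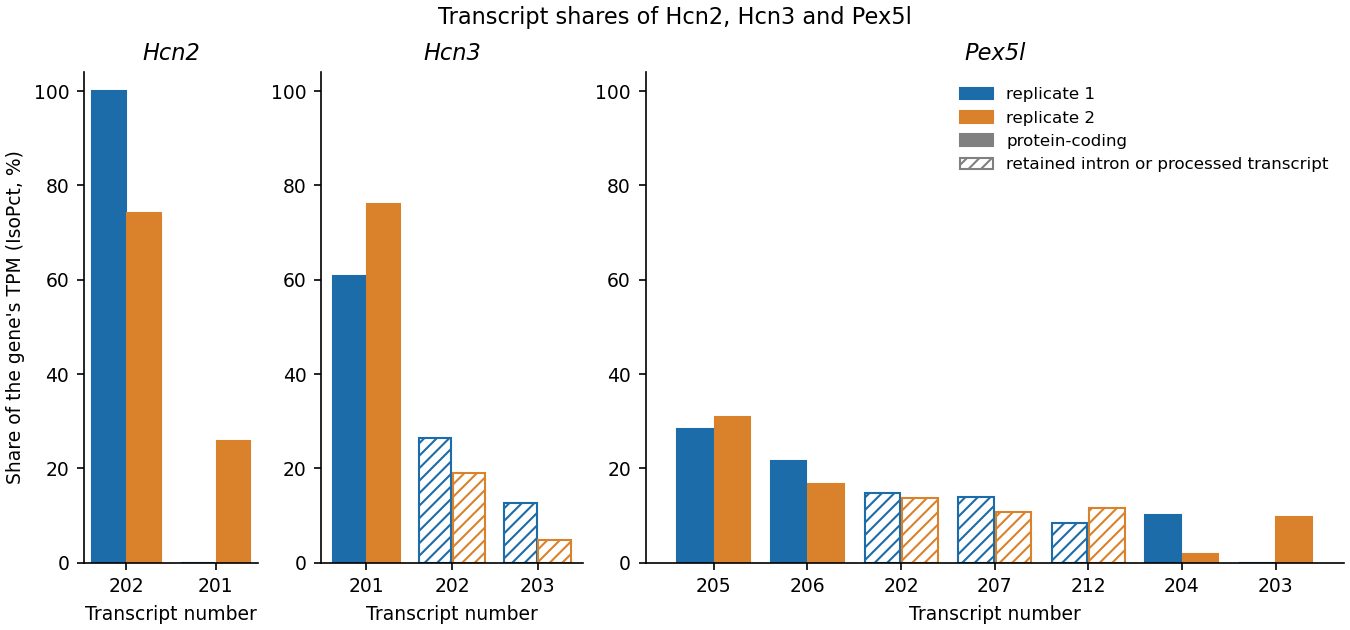
Share of each gene's TPM (IsoPct, percent, axis from 0) held by transcripts with at least 5% in either library, in replicate 1 (blue) and replicate 2 (orange), with filled bars for protein-coding and hatched bars for retained-intron or processed transcripts. Hcn3-201 holds 60.9 and 76.1%, and no Pex5l transcript passes 31.0%.

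Pex5l (ENSMUSG00000027674.12, chromosome 3, 32949408 to 33143247, minus strand) was the most divided of the 4 genes, with 12 annotated transcripts, 9 of them protein-coding. In rodents its protein variants differ at the N-terminal end and differ in their action on HCN channels, and the alternative exons are printed for that reason. The first 2 lines give the coding part of the alternative first exons with the start codon in capitals, at chr3:33142849-33142869 (distal) and chr3:33081976-33082068 (proximal). The next lines give 2 internal exons that some transcripts skip, of 72 bases at chr3:33080465-33080536 and of 105 bases at chr3:33024696-33024800. All are GRCm38, minus strand, in the direction of the transcript.
Pex5l distal start: ATGtaccagggacacatgcag
Pex5l proximal start: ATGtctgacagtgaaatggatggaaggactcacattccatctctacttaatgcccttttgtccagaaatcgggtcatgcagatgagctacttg
Pex5l small exon: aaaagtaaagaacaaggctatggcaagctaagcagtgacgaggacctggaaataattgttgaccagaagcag
Pex5l cassette exon: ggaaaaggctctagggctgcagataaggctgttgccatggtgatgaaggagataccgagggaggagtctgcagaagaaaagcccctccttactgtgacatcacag

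Protein-coding transcripts from both starts were present. Pex5l-205, which has the proximal start and the small exon and lacks the cassette exon, led with 28.4% of the gene's TPM in replicate 1 and 31.0% in replicate 2. Pex5l-206, the only protein-coding transcript with the distal start, lacks both internal exons and held 21.6 and 16.7%. The starts of these transcripts lie 61.0 kb apart. The order of these transcripts was the same in both libraries, but their deposited bounds overlapped in both, at 3.72 to 7.06 against 3.13 to 6.40 coding TPM in replicate 1 and 6.25 to 10.4 against 3.66 to 6.68 in replicate 2.

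Other Pex5l transcripts were less even between the libraries. Pex5l-204, a proximal-start form, held 10.1% in replicate 1 and 1.95% in replicate 2. Pex5l-203, which starts within the gene and lacks the N-terminal exons, held 0% in replicate 1 and 9.79% in replicate 2. The bounds overlapped for both, at 1.07 to 3.59 and 0.00164 to 2.09 coding TPM for Pex5l-204 and up to 1.99 against 0.582 to 5.32 for Pex5l-203. The counts were 127 and 36.1 for Pex5l-204 (posterior SDs 33.8 and 33.9) and 0 and 68.0 for Pex5l-203 (12.25 and 27.0). Overlap of bounds of unstated level cannot decide whether these transcripts differed between the libraries, which was not tested.

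Grouped by start, the distal start held 58.7% of Pex5l TPM in replicate 1 and 52.7% in replicate 2 (55.7 ± 4.21%). That majority of TPM consisted largely of transcripts with no annotated coding sequence. These were the retained-intron Pex5l-202 (14.8 and 13.7%), the 658 nt processed transcript Pex5l-207 (13.9 and 10.9%, from 29 and 32 counts) and Pex5l-212, a single-exon stretch of 3214 nt at the distal start (8.41 and 11.5%). By expected counts the distal and proximal starts were nearly even, at 593 and 597 in replicate 1 and 824 and 833 in replicate 2. Among protein-coding transcripts the distal start held 34.4 and 26.1% and the proximal start 65.6 and 58.6%. The same 65.6 and 58.6% carried the small exon, since every protein-coding transcript of the proximal start has it. The cassette exon was carried by 4.45 and 7.15% of protein-coding TPM by the main estimates, and by 9.61 and 11.5% from the deposited posterior means. Of the protein-coding transcripts that carry it, Pex5l-211 held 2.79 and 3.62% of the gene's TPM. Pex5l-209 held 0.01 and 0.95% by the main estimates but 2.33 and 3.05% from posterior means. The retained-intron Pex5l-202 carries the cassette exon as well, so that over all transcripts 17.6 and 18.2% of Pex5l TPM had it. Protein-coding transcripts together held 62.9 and 63.9% of Pex5l.

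**Figure D3:**
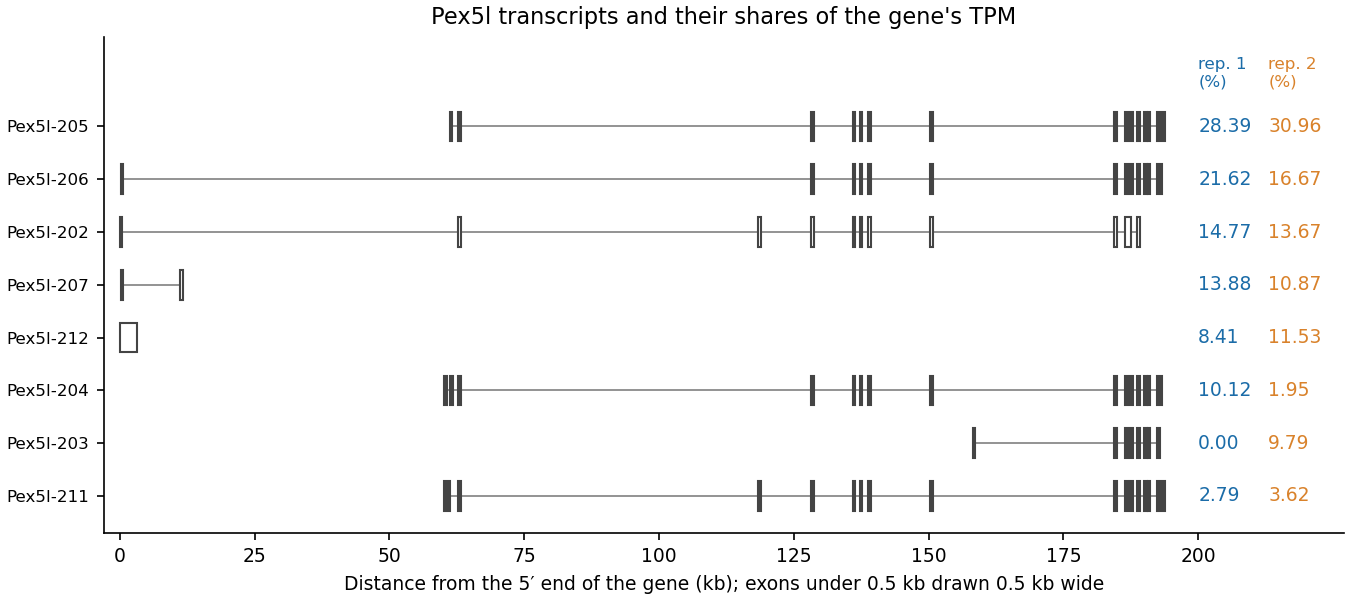
Exons (boxes) of Pex5l transcripts against distance in kb from the 5′ end of the gene, filled for protein-coding and open for other transcripts, with each transcript's share of the gene's TPM in replicate 1 (blue) and replicate 2 (orange) in percent. The 4 transcripts with the distal start sum to 58.7 and 52.7% over all transcripts, and Pex5l-206 is the protein-coding member among them.

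Genes that overlap Hcn3 or Pex5l had few counts of their own. Pklr, which encodes a pyruvate kinase and overlaps 711 bases of Hcn3 on the opposite strand, had 5 and 45 counts. Of the genes antisense to Pex5l, Gm37459 had 1 and 0 counts and 4930419G24Rik 0 in both. Within Pex5l on the same strand, Gm19445 had 30 and 90 counts and Gm37443 had 14 and 29. Whether the counting used strand is not given in the sources used here. How many reads of these overlapping genes were credited to Hcn3 or Pex5l was not measured.

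Between the isolates, Hcn4 differed most of the 4 genes and was lower in replicate 1. Each ratio is the log2 of TMM-scaled expected counts in replicate 1 over those in replicate 2, with a standard error from counting alone. Hcn4 had a ratio of -0.49 (SE 0.05, adjusted p = 1.25e-24), Pex5l -0.26 (SE 0.05, adjusted p = 6.55e-06), Hcn2 -0.12 (SE 0.05, adjusted p = 0.0159) and Hcn3 -0.08 (SE 0.04, adjusted p = 0.0786), by a two-sided exact binomial test with Benjamini-Hochberg adjustment over 17544 genes. All 4 ratios lay below 0, as did those of 7565 of 15187 protein-coding genes tested. That of Hcn3 was 0.032 when taken from coding TPM over all transcripts. The quartiles over all genes tested were -0.26 and 0.27, and Hcn2 and Hcn3 lay between them. None of the 4 genes was called at an adjusted p under 0.05 with at least a 2-fold difference, where 10.4% of the genes tested were, and 5.51% of the genes tested were called as lower in replicate 1. At an adjusted p under 0.05, with no fold threshold, 3 of the 4 passed, where 65.4% of the genes tested passed. With DESeq2 size factors 3 passed and with library totals 4, so that the outcome for Hcn3 depended on the scaling. The shares of all genes passing under these scalings were not computed. The test sets the reads of one isolate against the other and says nothing of conditions. Of all genes tested 13.8% had a ratio below that of Hcn4.

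Thalamic and GABAergic markers were lower in replicate 1 alongside Hcn4. All 5 thalamus markers were lower in replicate 1, with ratios from -0.71 for Prox1 to -0.32 for Rora, and Lhx9, a factor of thalamic neurons, at -0.50. Their summed level was 59.0 coding TPM in replicate 1 and 93.9 in replicate 2. All 4 GABAergic markers were lower as well, with ratios from -0.50 for Slc32a1, the vesicular GABA transporter, to -0.31 for Lhx6, and sums of 209 and 295 coding TPM. The telencephalon markers were mixed, from -0.59 for Emx2 to 0.34 for Lhx2 (sums 239 and 232), as were the glutamatergic markers, from -0.15 for Slc17a7 to 0.58 for Neurod6 (sums 482 and 434). None of these marker genes was called, where 10.4% of all genes tested were. Of protein-coding genes tested, 7565 of 15187 had a ratio below 0. Ratios near that of Hcn4 were not confined to the thalamic and GABAergic lists, with Rest at -0.49, Kcnh2 at -0.48 and the telencephalon marker Dlx1 at -0.52. Shox2, of the factors tied to Hcn4 in heart or thalamus, went the other way at 0.19, while 4 of 5 such factors tested were below 0. The part of tissue makeup in the ratio of Hcn4 was not tested, and in bulk tissue fewer cells of a type and less RNA per cell cannot be told apart.

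**Figure D4:**
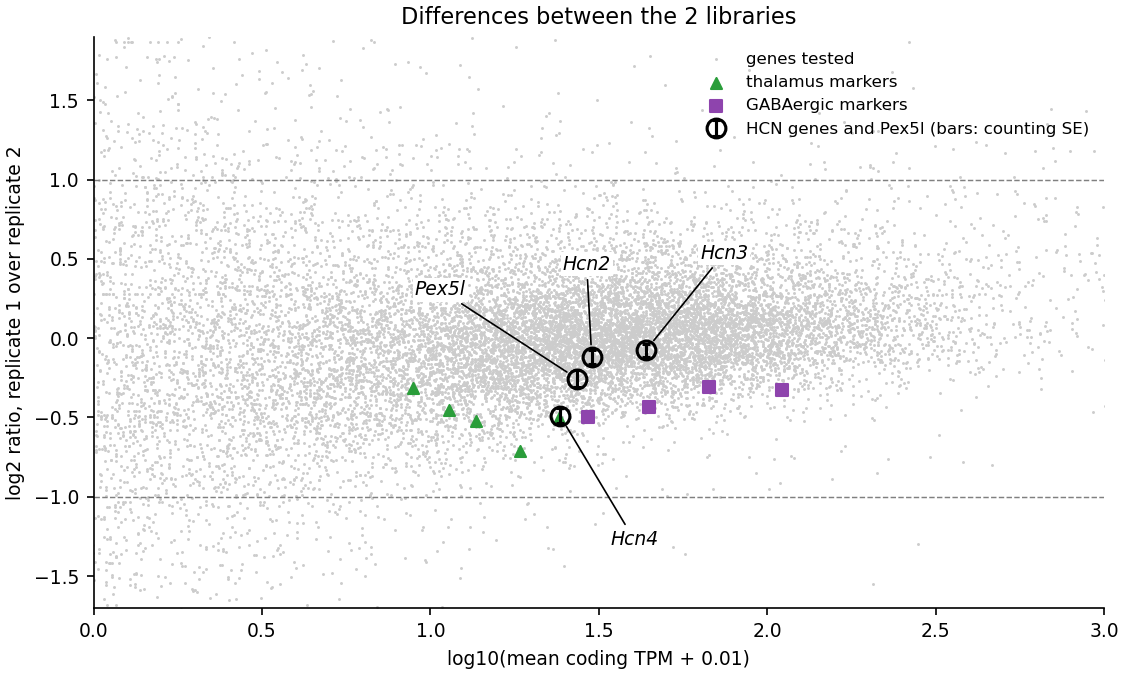
Log2 ratio of replicate 1 over replicate 2 against log10 of the mean coding TPM + 0.01 for genes tested within the plotted range (grey), with HCN genes and Pex5l as open circles with counting SE, thalamus markers as triangles and GABAergic markers as squares, and dashed lines at a 2-fold difference. Hcn4 at -0.49 encloses the thalamus marker Lhx9 at -0.50, and all 4 circles lie within the dashed lines.

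Heart, photoreceptor and hindbrain markers were low. Of heart muscle genes, Myl7, an atrial myosin light chain, had 0 counts in both libraries, which allows up to 3 counts of 61441535 and 65097130, and none of 5 reached 1 coding TPM in both. Their summed level was 2.73 coding TPM in replicate 1 and 7.49 in replicate 2. Of 4 heart genes tested 4 were called, where 10.4% of all genes tested were, and all rested on few reads. Myh6 (-2.25, from 30 and 175 counts), Tnni3 (-2.95, from 5 and 51) and Actc1 (-1.42, from 12 and 40) were lower in replicate 1, and Nppa (3.31, from 20 and 2) was higher. The photoreceptor genes summed to 2.14 and 2.22 coding TPM and the hindbrain genes to 3.03 and 1.32, with Crx (1.01) and En2 (3.18) called as higher in replicate 1. Mog, of myelinating oligodendrocytes, in which Hcn2 is also known, had 0 counts in both. Of the 4 oligodendrocyte markers 2 reached 1 coding TPM in both libraries, Mag and Cnp, and the list summed to 38.6 and 42.7 coding TPM, nearly all from Cnp (36.2 and 39.9).

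Most known partners of HCN channels were expressed. Of 11 listed genes 9 reached 1 coding TPM in both libraries, with medians of 30.1 coding TPM in replicate 1 and 35.1 in replicate 2. Flna, the actin cross-linker filamin A, was highest at 320 ± 7.36 coding TPM, followed by Vapa (262 ± 56.9), a membrane contact protein of the endoplasmic reticulum, and its relative Vapb (39.8 ± 0.580), another partner. Kctd3, which raises the surface level of HCN3, had 61.7 and 76.7 coding TPM, above Hcn3 itself. The scaffold genes of HCN2 differed in level, with Magi2 at 34.2 ± 1.21 and Grasp, encoding tamalin, at 9.24 ± 1.58. Nedd4l, a ubiquitin ligase that acts on HCN channels, had 33.4 ± 4.60.

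The modulators tied to HCN4 were low. Lrmp had 2.14 and 0.817 coding TPM and Mrvi1, its relative, 2.73 and 2.59. Cav3, a caveolin of heart and skeletal muscle, had 0 counts in both libraries. Kcne2, a single-pass accessory subunit also known from choroid plexus, had 3.84 and 1.45 coding TPM. It was called as higher in replicate 1, with a log2 ratio of 1.60 (SE 0.25, adjusted p = 2.8e-11) from 121 and 48 counts. That is 1 of 10 partners tested, a share near the 10.4% called over all genes tested.

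Pex5, the peroxisomal relative of Pex5l, was the more abundant of the pair. It had 95.2 and 99.2 coding TPM against 23.2 and 31.5 for Pex5l. All 4 genes of the peroxisomal import list reached 1 coding TPM, with Pex14, a docking protein, at 61.7 ± 3.28, Pex7, an import receptor, at 28.4 ± 2.15 and Pex13 lowest at 23.4 ± 1.22. None was called between the libraries, where 10.4% of all genes tested were.

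Among 14 other channel genes whose products carry a cyclic nucleotide-binding or homologous domain, 7 reached 1 coding TPM in both libraries, with medians of 3.21 and 3.68. These were all voltage-gated potassium channel genes of the Kcnh family, led by Kcnh3 (19.6 ± 1.46), Kcnh7 (16.8 ± 0.627) and Kcnh2 (16.7 ± 5.19). The cyclic nucleotide-gated channel genes, known from photoreceptors and olfactory neurons, were lower, from Cnga3 with 0.148 and 1.73 coding TPM down to Cnga1 with 0 counts. Cnga3 (-1.34, SE 0.47, adjusted p = 0.00484, from 12 and 38 counts) and Kcnh6 (-1.44, SE 0.21, adjusted p = 2.17e-12) were called, both lower in replicate 1, which is 2 of 13 genes tested against 10.4% over all genes tested.

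Enzymes that make and break down cyclic AMP, the ligand of HCN2 and HCN4, were broadly present. Of 10 adenylyl cyclase genes 9 reached 1 coding TPM in both libraries, with medians of 20.0 and 21.2. Adcy1, a calcium-stimulated cyclase, was highest at 154 and 110 coding TPM, followed by Adcy5 (52.4 ± 3.92), known from striatum, and Adcy2 (29.6 ± 2.73), and Adcy10, the soluble cyclase, had 3 and 2 counts. Of 14 phosphodiesterase genes 13 reached 1 coding TPM in both, with medians of 17.1 and 20.2. The highest were Pde4d (75.7 ± 0.144) and Pde1b (74.0 ± 0.474), followed by Pde4b (67.2 ± 8.72), and the lowest was Pde4c (0.522 ± 0.0967). None of these enzymes was called, where 10.4% of all genes tested were.

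The transcription factors tied to Hcn4 in heart or thalamus were at low levels apart from Isl1. Isl1, also a factor of striatal neurons, had 53.3 and 60.6 coding TPM, Rest, a repressor of neuronal genes, 6.52 ± 2.02, and Tbx18 5.98 ± 2.20. Shox2 had 3.04 ± 0.962, and Nkx2-5, a heart factor, had 0 and 4 counts. Of 5 factors tested 1 was called, where 10.4% of all genes tested were. This was Tbx3, at -1.60 (SE 0.19, adjusted p = 1.88e-18), from 70 and 259 counts. Its coding TPM, 1.40 in replicate 1 and 2.63 in replicate 2, differed by less than 2-fold. Of the 6 factors 5 reached 1 coding TPM in both libraries.

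**Figure D5:**
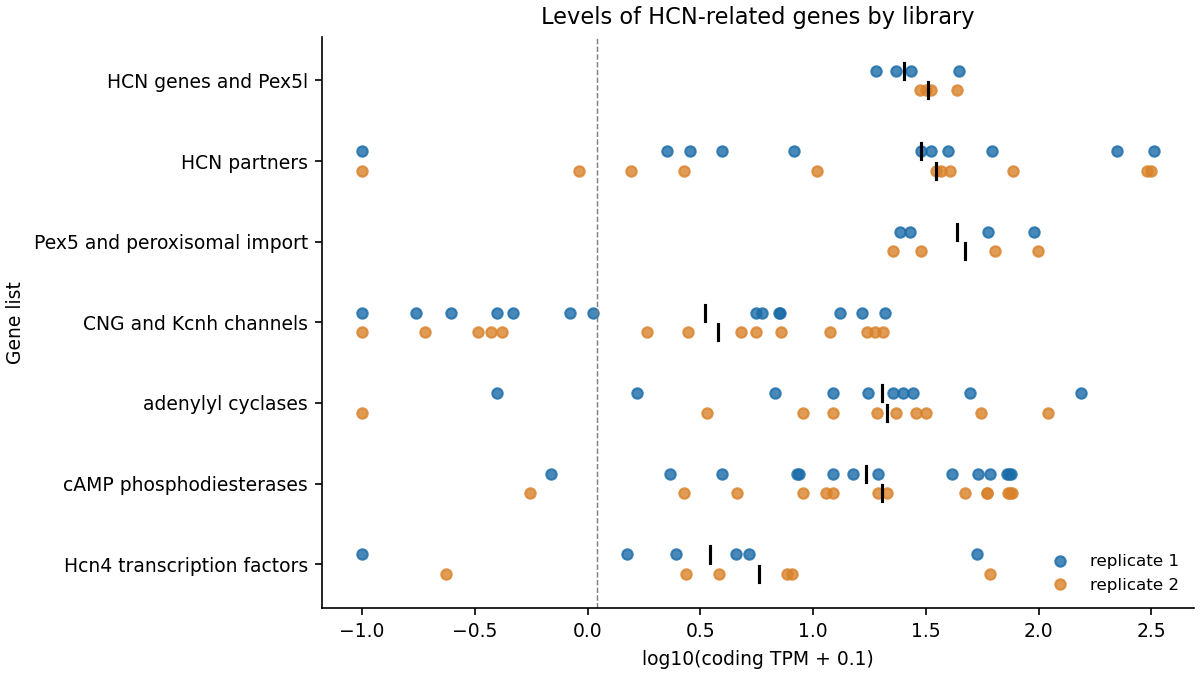
Log10 of coding TPM + 0.1 for each gene of each list in replicate 1 (blue) and replicate 2 (orange), with black ticks at the list medians and a dashed line at 1 coding TPM. HCN genes and Pex5l lie within a narrow band, while HCN partners range from 0 counts (Cav3) to Flna at 320 coding TPM.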

How the data were processed

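The authors deposited gene and transcript tables of each library, on mm10 with GENCODE M4, per the read-me text deposited with each library. The aligner and quantifier: not given in the sources used here. The deposited expected counts, posterior mean counts, TPM, FPKM and isoform percent values were used as named in the file headers. The deposited interval bounds of TPM were read as signal values, and their level is not stated. TPM spans all features, spike-ins included.

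Of 43346 mouse genes, 42462 matched GENCODE M21 by identifier, which gave symbols, types and coordinates. Pde2a had no match and was left out. Coding TPM multiplied TPM by 7.38 in replicate 1 and 4.54 in replicate 2, because protein-coding genes held 13.5 and 22.0% of TPM. Totals were 61441535 and 65097130 expected counts over mouse genes.

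Expected counts were rounded. TMM factors came from edgeR 4.0.16 and alternative size factors from DESeq2 1.42.0 in R 4.3.3. Genes averaging 10 or more counts were compared by a two-sided exact binomial test, with 0.5 added to counts in ratios. On simulated data for replicate 1 over replicate 2 with 17544 genes, 91 of 100 genes changed 3-fold and 100 of 100 changed 5-fold were called. The simulated counts had counting (Poisson) spread alone, so these rates do not cover variation between isolates. Python 3.11.15, scipy 1.17.1, pandas 2.3.3, statsmodels 0.14.6 and Biopython 1.88 served the other steps.

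The members and lists were chosen with earlier results of these data known. Named were the 4 genes, their transcripts with at least 5% of TPM, Pex5l-211 added for its cassette exon, all HCN partners, the 3 highest and the lowest gene of each other list, and list genes called between the libraries. Other genes named in the text were chosen after their values were seen. Counting intervals and floors cover counting error only, since reads carry no molecular identifiers.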

Additional observations from a re-analysis of the deposited data

How the results depend on the processing

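Of 148 alternative values, 121 were classed as the same. Ratios between the libraries had to keep direction and side of the threshold, and levels, gene ratios and shares to move by no more than 1 SD. Numbers of genes were judged by their fold change instead. Leaving out either replicate always shifts a mean over both by less than 1 SD. Such alternatives for levels, gene ratios and shares therefore could not exceed that limit, and the share of the single Hcn4 transcript could not move. The 121 includes these values and is not a measure of robustness. As deposited TPM, Hcn2, Hcn3, Hcn4 and Pex5l stood at 5.49, 7.75, 4.55 and 5.04, because other features share that total. Hcn3 was 45.7 coding TPM without mitochondrially encoded genes in the denominator and 47.9 without the 10 highest genes. By protein-coding transcripts alone, Hcn3 had 29.9 and Pex5l 17.4 coding TPM, the ratio Hcn3/Hcn2 reversed to 0.990 and Pex5l/Hcn4 to 0.726, Hcn3/Hcn4 was 1.26 and Hcn2/Pex5l 1.75. By counts without length, Pex5l/Hcn4 reversed to 0.746, Hcn2/Pex5l was 1.41 and Hcn2/Hcn4 1.05. The share of Pex5l TPM from the distal start was 30.2% of protein-coding transcripts. The share of Pex5l-205 was 24.9% from posterior means and 46.8% of protein-coding transcripts, and Hcn3-201 is then 100% by construction. The cassette exon was carried by 10.6% of protein-coding Pex5l TPM from posterior means, against 5.80%. The alternatives with protein-coding transcripts alone, and posterior means for the start and cassette shares, were chosen after seeing the data. From coding TPM, the log2 ratio of Hcn3 between the libraries reversed to 0.032.

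Leaving out either replicate gave 27.1 to 33.2 coding TPM for Hcn2, 43.2 to 44.2 for Hcn3, 18.9 to 29.6 for Hcn4 and 23.2 to 31.5 for Pex5l. The genes called between the libraries numbered 1833, against 2752 with no filter beyond 1 count, 377 with at least 100 counts and 3475 at 1.5-fold. Library totals moved the median ratio to -0.19, and 33.4% of calls were then higher in replicate 1, against 47.3% with TMM. None of the 4 genes was called with TMM, DESeq2 size factors, library totals, posterior mean counts or either filter. Over all genes the calls were 1833 of 17544 with TMM, 1835 of 17544 with DESeq2 size factors and 1966 of 17544 with library totals. Posterior mean counts gave 1831 of 17559. With no filter beyond 1 count there were 2752 of 21394, and with at least 100 counts 377 of 13681. The list counts moved by over 1.5 times in 3 cases, all to lower numbers, for the channel and transcription factor lists. No paired analysis was possible because the libraries form a single group.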
